A study of Rattus norvegicus with 10 samples.

Results

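The collagens, the laminins that lie with them in basement membranes, and the enzymes that cut this matrix were compared in the liver of rats on 5 diets. Members were all probe sets whose single gene symbol was a collagen chain (Col, a number, a, a number) or a numbered Mmp, Timp, Lama, Lamb, Lamc or Adamts gene. The rule gave 84 genes, of 14217 named singly by the array's probe sets, measured by 119 of the 31042 probe sets that were not controls. Where a gene has several probe sets, they are called first, second and so on in the order of the array's identifiers. The rule used gene names and no measured value.

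The rats were male Wistar animals, an outbred laboratory strain. They ate standard chow, or 1 of 4 high-fat diets for 12 weeks. Fat made up 42% of the energy of these diets and came from fish oil (cod liver oil in the design text), coconut fat, olive oil or lard. All were fasted overnight, RNA came from a frozen piece of liver, and each sample went onto 1 Affymetrix array, with 2 arrays for each diet and 10 in all. The labels give no fat share for chow, so the amount and the type of fat cannot be told apart in a comparison with chow. They do not say whether RNA of several animals was pooled, so p-values reflect only how far these samples spread, which may be technical.

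Collagens are the main fibrous proteins outside cells. In a healthy liver the fibrillar types I, III and V stay mainly around portal tracts and central veins. Type IV and type XVIII lie along the sinusoids and vessels, and laminins mainly along the vessels. Hepatic stellate cells, which store vitamin A at rest, make most fibrillar collagen once they are activated, and transforming growth factor beta is the best known signal for this. Matrix metalloproteinases (Mmp) and Adamts proteases cut matrix proteins, and tissue inhibitors of metalloproteinases (Timp) block them, so collagen, protease and inhibitor messenger RNA are often read together. Whole liver RNA is mostly from hepatocytes. In such bulk samples, fewer cells of a type and less RNA per cell cannot be told apart.

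The deposited value is the MAS5 signal, a linear brightness for each probe set, with a trimmed mean of 100 on each array. Array medians lay between 28.7 and 31.9, except for 36.8 on the second lard array. Across probe sets on the log2 scale, 2 arrays of 1 diet gave r = 0.919 to 0.935, and pairs from unlike diets gave 0.907 to 0.934, so diets were not clearly apart over the whole array. A signal was taken to be above background when it exceeded 12.8, the highest signal of the 3 probe sets for the bacterial control gene trp. With 2 arrays per diet, the number of arrays limits the precision.

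Of the 119 member probe sets, 47 (39.5%) lay above background on all 10 arrays, 61 on some arrays and 11 on none. Over all probe sets, 15219 of 31042 (49.0%) lay above on all 10 arrays. By gene, 36 of 84 had at least 1 probe set above background on every array, and 5 had none above it on any array. On single arrays, 75 to 85 members were above background, or 63.0% to 71.4%, against 69.8% to 74.1% of all probe sets. The lowest number was on the second fish oil array and the highest on the second olive oil array.

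**Figure D1:**
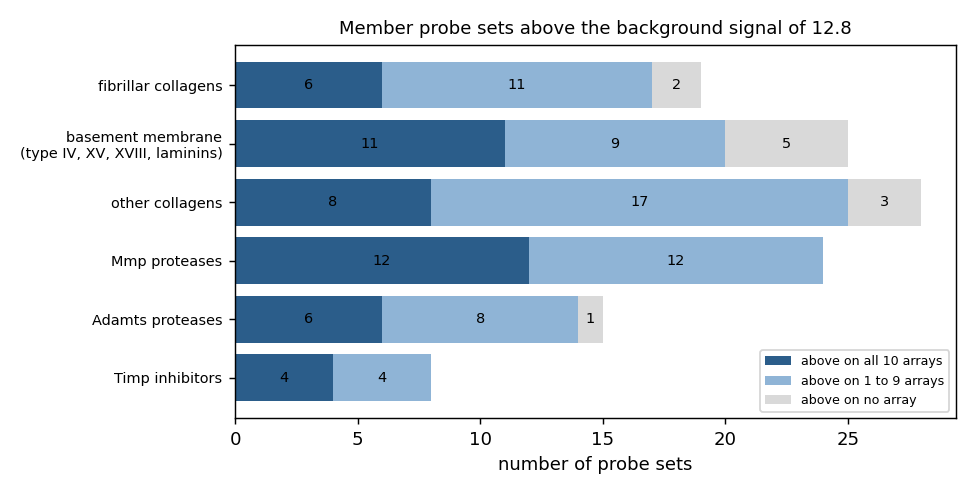
Number of member probe sets (horizontal axis) by role (vertical axis), split by whether their signal exceeded the background of 12.8 on all 10 arrays, on 1 to 9, or on none. Mmp proteases had 12 of 24 above on all arrays and fibrillar collagens 6 of 19.

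Among fibrillar collagens, 6 of 19 probe sets were above background on all arrays. They belonged to Col1a1 and Col1a2 (the chains of type I), Col3a1 (type III) and Col5a2 (a chain of type V). The cartilage collagens Col2a1 and Col11a1 were not above background on all arrays with any probe set, and 2 of the 3 Col11a1 probe sets were above it on none. In the basement membrane group 11 of 25 probe sets were above on all arrays, among them both probe sets of Col4a1 and of Col18a1, the source of endostatin. Both Col4a6 and 2 of the 3 Lama5 probe sets were above background on no array. Of the other collagens, 8 of 28 were above on all arrays, including both probe sets of Col14a1, a collagen that sits on fibril surfaces, and 1 each of Col6a1, Col6a2 and Col6a3, which form beaded microfibrils around cells. Among the Adamts proteases the number was 6 of 15, and among the inhibitors 4 of 8, from Timp1, Timp2 and Timp3.

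The Mmp proteases split by where their genes lie. Mmp13, Mmp12, Mmp3, Mmp10, Mmp8 and Mmp7, which encode secreted collagenases, stromelysins, matrilysin and a macrophage elastase, lie within 358 kb of chromosome 8 (chr8:12782829-13140761, GRCr8). Of these 6 genes, 0 were above background on all 10 arrays, and their highest signals on any array were between 15.9 for Mmp10 and 31.8 for Mmp13. Of the 11 Mmp genes elsewhere, 8 were above background on all 10 arrays, among them the membrane-bound Mmp14 and Mmp15 and the gelatinase Mmp2. The other gelatinase, Mmp9, reached the background on at most 2 arrays. These counts describe this probe design, since a dim probe set can also bind its target poorly.

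The RefSeq windows before the start of the 6 clustered genes are shown because 5 of them hold the letters TGANTCA, the core of an AP-1 site, and all 6 hold TATAAA. Both motifs were searched on both strands in the 250 bases before the start, and the last 100 bases are printed with matches in capitals (TTTATA is TATAAA on the other strand). All 6 genes lie on the forward strand, and their stretches, in the order printed, are chr8:12782729-12782828, chr8:12866552-12866651, chr8:12925181-12925280, chr8:12974607-12974706, chr8:13008790-13008889 and chr8:13132943-13133042.
Mmp13: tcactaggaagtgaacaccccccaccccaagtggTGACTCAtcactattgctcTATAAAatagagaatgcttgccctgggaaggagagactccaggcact
Mmp12: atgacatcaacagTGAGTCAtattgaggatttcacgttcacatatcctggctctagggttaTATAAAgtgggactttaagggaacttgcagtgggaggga
Mmp3: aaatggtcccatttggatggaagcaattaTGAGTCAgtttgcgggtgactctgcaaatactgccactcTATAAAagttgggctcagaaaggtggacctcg
Mmp10: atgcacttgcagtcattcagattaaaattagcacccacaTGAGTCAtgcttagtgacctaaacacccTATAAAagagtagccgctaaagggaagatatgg
Mmp8: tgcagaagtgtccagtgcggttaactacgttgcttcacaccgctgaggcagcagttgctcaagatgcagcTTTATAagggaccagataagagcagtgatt
Mmp7: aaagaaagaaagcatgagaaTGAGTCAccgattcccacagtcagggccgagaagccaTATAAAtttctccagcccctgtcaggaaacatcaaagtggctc

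Over all 27457 windows of the table, 6.36% held TGANTCA and 13.1% held TATAAA. The 5 other Mmp genes with a window held neither, and all 5 held the GC box GGGCGG, which 0 of the 6 clustered genes held. Among those 5, Mmp11 was above background on 2 arrays and Mmp28 on 1. The bright genes Mmp14 and Mmp2 have no window, so these letters were not set against signal. Among all members with a window, 63 of 84 genes, 54.0% held GGGCGG against 32.4% of all windows, and 28.6% held CCAAT against 34.3%. A match describes letters in a window and is not shown to be a bound site. Windows end at the start of the transcript that the table chose, and other transcripts can start elsewhere.

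For the tests, the offset 3.1, which is the 10th percentile of the deposited signals, was added and log2 taken. The dimmest 40% of probe sets by mean were left out. Of the members, 63 probe sets of 47 genes were tested and 56 were too dim. Fold changes on this scale understate the change of dim genes. All 10 arrays went into a single limma fit that gave each diet its own mean, and p-values were adjusted over the 18626 probe sets tested. The 4 comparisons with chow share the same 2 chow arrays and are not independent of each other.

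At an adjusted p of 0.05 by limma, 0 of 63 members passed in any of the 7 comparisons. Among all probe sets tested, the share that passed was 0.156% with fish oil against chow, 0.0268% with olive oil, 0.0161% with lard and 0.0% with coconut fat. It was 0.0376% for the mean of the 4 high-fat diets against chow, 0.424% for fish oil against the average of lard, olive oil and coconut fat (the other 3, below), and 0.14% in the F-test for any difference among the 5 diets. A count of 0 of 63 is near these shares, so it is not a result particular to matrix genes. At an unadjusted p under 0.05 the members numbered 9 (14.3%, against 7.63% of all probe sets) with fish oil, 4 (6.35%, against 7.99%) with lard, 4 (6.35%, against 8.38%) with olive oil and 2 (3.17%, against 5.43%) with coconut fat. Of the 9 with fish oil, 5 were higher than chow (7.94%, against 3.54%) and 4 lower (6.35%, against 4.09%). The members numbered 5 (7.94%, against 6.66%) for the high-fat mean, 6 (9.52%, against 11.8%) for fish oil against the other 3 and 6 (9.52%, against 9.4%) in the F-test. The fish oil count fell to 4 (6.35%, against 7.11%) without the first chow array and to 5 of 60 (8.33%, against 7.11%) in a fit of fish oil and chow alone. The lard count was 7 (11.3%, against 8.35%) without the first lard array. For olive oil it was 2 without the first olive oil array (3.17%, against 7.22%) or the first chow array (3.17%, against 6.47%), and 7 (11.1%, against 7.96%) without the second chow array. The coconut fat count was 5 (7.94%, against 5.81%) without the second chow array. For the high-fat mean it was 2 (3.17%, against 5.67%) without the first chow array, and 3 without the second lard array (4.55%, against 6.34%) or the second coconut fat array (4.76%, against 6.28%).

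The middle of the members moved little. Their median log2 fold change against chow was -0.03 with fish oil, 0.19 with olive oil, 0.12 with lard and 0.05 with coconut fat, beside -0.01, 0.02, 0.04 and -0.02 over all probe sets. Under fish oil against the other 3 it was -0.13, beside -0.02. With quantile normalization the members' median was -0.01 with fish oil, 0.14 with olive oil, 0.06 with lard and 0.06 with coconut fat, and -0.06 for fish oil against the other 3. With 1 array left out at a time it ran from -0.04 to 0.06 with fish oil, from 0.17 to 0.23 with olive oil, from 0.06 to 0.25 with lard, from -0.01 to 0.17 with coconut fat, and from -0.18 to -0.06 for fish oil against the other 3. The dim filter also changed the medians. When 60% of probe sets were left out, the 36 remaining members gave -0.04 with fish oil, 0.07 with olive oil, 0.04 with lard and 0.02 with coconut fat. All 119 members, with no dim filter, gave -0.03, 0.09, 0.21 and 0.05 in the same order. For fish oil against the other 3 these filters gave -0.05 and -0.15. Both olive oil arrays lay above both chow arrays for 21 of 63 members (33.3%, against 20.5% of all probe sets) and below both for 3 (4.76%, against 17.5%). With lard these counts were 19 (30.2%, against 23.0%) and 5 (7.94%, against 16.7%), with coconut fat 17 (27.0%, against 17.1%) and 9 (14.3%, against 19.2%), and with fish oil 13 in each direction (20.6%, against 17.5% higher and 19.0% lower). Both fish oil arrays lay above all 6 arrays of the other 3 for 2 members (3.17%, against 5.96%) and below them for 5 (7.94%, against 6.8%). These are counts over genes that share arrays, and they were not tested.

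**Figure D2:**
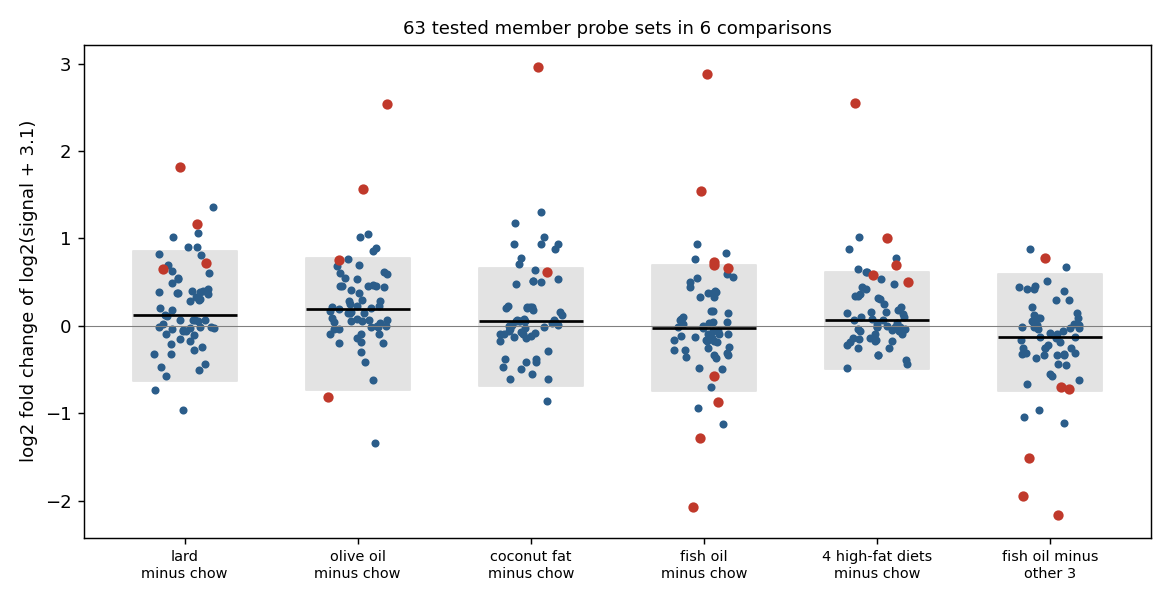
Log2 fold change (vertical axis) of the 63 tested member probe sets in 6 comparisons (horizontal axis), with the members' median as a black line, the 5th to 95th percentile of all 18626 probe sets as a grey box, and members at an unadjusted limma p under 0.05 in red. None of the points passed after adjustment, and the medians lie between -0.13 and 0.19.

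Type I and type III collagen, the chains most often read as a sign of scar formation, showed no difference that passed. Col3a1 measured 576.6 and 534.4 on the chow arrays, 583.1 and 415.1 with lard, 614.6 and 661.4 with olive oil, 552.8 and 566.2 with coconut fat, and 501.9 and 517.5 with fish oil. The olive oil arrays were both above the chow arrays and the fish oil arrays both below them, each by a small margin. The mean of the high-fat diets differed from chow by -0.02 on the log2 scale, with a 95% interval from -0.31 to 0.27, so the fitted ratio lay between 0.804 and 1.21. For the second probe set of Col1a2, the same difference was 0.02, with an interval from -0.43 to 0.47.

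The first Col1a1 probe set measured 27.0 and 33.6 with chow and 62.2 and 81.7 with lard, so those groups did not overlap. Olive oil gave 30.9 and 66.9, coconut fat 48.0 and 41.7, and fish oil 45.9 and 45.4. Lard was above chow by 1.16 on the log2 scale (SE 0.36, limma adjusted p = 0.479), the smallest adjusted p of any member in that comparison. The second probe set of the gene gave 0.63 for lard and was at 7.1, below background, on the first chow array and at 40.6 on the second. With 1 array left out at a time its lard value ran from -0.42 to 1.68.

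Type V collagen, which sits inside type I fibrils, has 3 genes among the members, of which Col5a1 and Col5a2 were bright enough to test. Col5a3 was above background on 2 of 10 arrays. The second Col5a2 probe set measured 22.8 and 30.7 with chow and 46.0 and 43.1 with olive oil. That is a log2 difference of 0.69 (SE 0.35, limma adjusted p = 0.654), and the first probe set gave 0.46. Coconut fat, at 34.8 and 43.5, also lay above both chow arrays on the second probe set (0.51), and gave 0.0 on the first. Col5a1 gave 1.05 (SE 0.73) with olive oil and 0.94 with fish oil. Lard gave 0.38 and coconut fat 0.12, from arrays that differed by several fold within each of these 2 diets. Of the 9 fibrillar probe sets tested, 8 had an olive oil value above 0, as did 51.7% of all probe sets, with a median of 0.46, and 0 passed. With coconut fat 8 were also above 0 (47.9% of all probe sets), with a median of 0.12. With lard and with fish oil 5 were above 0 (55.3% and 48.5% of all).

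Among basement membrane genes, Col4a1 and Col4a2 encode the chains of the common type IV network and lie head to head on chromosome 16. Their starts are 76 bases apart in RefSeq (chr16:84885521-84885596, GRCr8), with Col4a2 on the reverse and Col4a1 on the forward strand. The bases between them are shown on the forward strand because both genes start from this stretch, with the GC box letters in capitals (CCGCCC is GGGCGG on the other strand).
Col4a2-Col4a1: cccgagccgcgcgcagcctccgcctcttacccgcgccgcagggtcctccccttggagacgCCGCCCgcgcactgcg

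The pair did not give like values on these arrays. The second Col4a1 probe set lay between 113.1 and 142.2 on all 10 arrays, and the high-fat mean differed from chow by -0.10, with a 95% interval from -0.42 to 0.21. The Col4a2 probe set measured 41.9 and 42.6 with chow but 65.7 and 7.7 with lard and 58.3 and 6.0 with fish oil, so it fell on both sides of the background within a diet. Its fish oil difference from chow was -0.94 with an SE of 0.88. The first Col18a1 probe set differed between the high-fat mean and chow by -0.05, with an interval from -0.33 to 0.23.

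Col4a5, a chain of another type IV network, measured 24.0 and 103.6 with chow and 186.5 and 129.8 with olive oil (a log2 difference of 1.56, SE 0.51, limma adjusted p = 0.42). The 2 chow arrays thus differed more from each other than the second chow array did from either lard array. Without the second chow array the olive oil value was 2.55 and passed, with a limma adjusted p of 0.0428, while without the first chow array it was 0.57 (limma adjusted p = 0.879). Lama3, a laminin chain of epithelial basement membranes, measured 102.5 and 106.4 with chow, 58.4 and 56.9 with olive oil, and 189.1 and 107.1 with fish oil. Olive oil was below chow without overlap (-0.82, SE 0.29, limma adjusted p = 0.485). Lamc1, the gamma chain of most laminins, differed between the high-fat mean and chow by 0.00 and -0.02 on its 2 probe sets.

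Among the remaining collagens, the lowest fish oil values belonged to Col8a1, a short-chain collagen of vessel walls. Its probe set measured 6.2 and 7.0 with fish oil, both below background. It measured 14.5 and 28.7 with chow, 19.7 and 23.3 with lard, 54.4 and 36.4 with olive oil, and 44.8 and 39.1 with coconut fat. Both fish oil arrays were below every other array. Against the other 3 the log2 fold change was -1.95 (SE 0.39), which is 2.36-fold lower with fish oil at the background bound, with a limma adjusted p of 0.0699. Against chow it was -1.29 (SE 0.47), 1.49-fold lower at this bound, with a limma adjusted p of 0.539. The bound sets the brighter group's mean against the background of 12.8 in place of the dim signal. It leaves out the spread between arrays, so it is not the smallest change the data allow.

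The first Col6a3 probe set measured 42.3 and 32.8 with fish oil and 48.1 to 79.7 on the other 8 arrays, with no overlap. The log2 fold change was -0.87 (SE 0.29, limma adjusted p = 0.45) against chow and -0.72 (SE 0.23, limma adjusted p = 0.251) against the other 3. Its second probe set, close to background, gave -0.16 and -0.03. Of the partner chains, Col6a1 gave -0.03 and -0.01, and the first Col6a2 probe set gave -0.33 and 0.09. The first Col12a1 probe set gave -1.51 (SE 0.59, limma adjusted p = 0.34) against the other 3, where the fish oil arrays measured 21.4 and 2.5. Of the 15 other collagen probe sets tested, 12 had a value below 0 with fish oil against chow, as did 51.5% of all probe sets, with a median of -0.28. The first Col14a1 probe set gave -0.00 (SE 0.18).

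Among the proteases, Adamts9 and Adamts5, which cleave the large proteoglycans versican and aggrecan, had the values farthest from 0, and each has a second probe set. The first Adamts9 probe set measured 4.3 and 4.8 with fish oil, both below background. It measured 29.6 and 28.4 with chow, 14.0 and 26.6 with lard, 73.5 and 27.5 with olive oil, and 34.6 and 33.9 with coconut fat. Again both fish oil arrays were below all others. The log2 fold change was -2.07 (SE 0.54, 2.02-fold lower at the background bound, limma adjusted p = 0.274) against chow. Against the other 3 it was -2.17 (SE 0.44, 2.16-fold lower at the background bound, limma adjusted p = 0.0761). The second probe set measured 35.6 and 27.9 with fish oil and 29.1 and 20.6 with chow, and gave 0.33 and 0.30 in the same comparisons. The 2 probe sets of Adamts9 thus gave opposite signs. Without the second olive oil array, the first probe set passed against the other 3 (-2.39, limma adjusted p = 0.0396).

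The second Adamts5 probe set measured 7.1 and 2.4 with chow, both below background. The high-fat arrays measured 55.8 and 8.8 with lard, 75.6 and 21.0 with olive oil, 61.3 and 49.5 with coconut fat, and 35.8 and 74.9 with fish oil. All 8 lay above both chow arrays, though the second lard array was itself below background. The high-fat mean was 2.76-fold above chow at the background bound (log2 fold change 2.55, SE 0.61, limma adjusted p = 0.282), so it did not pass. The first probe set measured 19.7 and 19.3 with chow and between 17.2 and 47.6 with the high-fat diets, so the first fish oil array was below chow. It gave 0.65 for the high-fat mean, the same sign at a smaller size. Adamts12, which acts on cartilage matrix proteins, measured 33.0 and 44.8 with chow and 47.4 to 72.8 on the high-fat arrays, without overlap (0.58, SE 0.21, limma adjusted p = 0.624). These 2 were the members whose 8 high-fat arrays all lay above both chow arrays (3.17% of 63, against 2.55% of all probe sets), and 0 members lay below.

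Adamts7 measured 95.8 and 109.8 with fish oil, 168.9 and 142.5 with chow, and 118.4 to 208.9 with the other high-fat diets. Both fish oil arrays were below all other arrays. The value was -0.58 (SE 0.25, limma adjusted p = 0.624) against chow and -0.70 (SE 0.20, limma adjusted p = 0.207) against the other 3. Adamts7 falls outside the rule for named genes and was chosen after its values were seen.

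Among the Mmp proteases, Mmp14, a membrane-bound collagenase that also activates the Mmp2 proenzyme, lay between 470.6 and 707.0 on its brighter probe set. The high-fat mean differed from chow by 0.16, with a 95% interval from -0.19 to 0.51, and its second probe set gave -0.05. Mmp2 gave 0.14 and -0.25 on its 2 probe sets. Mmp19, a secreted protease found in several healthy tissues, measured 44.8 and 61.8 with chow. It measured 74.5 and 96.0 with lard, 83.0 and 81.0 with coconut fat and 81.8 and 88.9 with fish oil, all above chow, while olive oil overlapped chow at 45.9 and 68.1. Its log2 fold changes were 0.65, 0.61 and 0.66 for those 3 diets, with limma adjusted p-values of 0.589, 0.908 and 0.585. Mmp15 measured 71.5 and 70.9 with chow and 121.4 and 116.7 with lard (0.72, SE 0.29, limma adjusted p = 0.574). Olive oil, at 99.1 and 92.7, and fish oil, at 74.1 and 85.3, also lay above both chow arrays (0.41 and 0.15). Coconut fat overlapped chow at 49.6 and 98.3. The third Mmp23 probe set measured 45.1 and 44.7 with fish oil, 6.5 and 25.4 with chow and 10.3 to 43.1 with the other high-fat diets. It gave 1.54 against chow and 0.88 against the other 3, but the gene's lowest probe set values were -0.19 and -0.55. The third Mmp24 probe set measured 127.0 and 124.4 with fish oil, 112.1 and 49.1 with chow and 68.2 to 119.6 with the other high-fat diets. It gave 0.73 and 0.42, while the second Mmp24 probe set gave 0.17 and 0.02. The value of the third against chow ran from 0.16 to 1.3 with 1 array left out at a time.

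The Timp inhibitors did not share a direction. Timp1, which is induced when stellate cells are activated, measured 72.3 and 45.0 with chow and 31.4 and 41.1 with olive oil, while lard, coconut fat and fish oil overlapped chow. The high-fat mean differed from chow by -0.17, with a 95% interval from -0.74 to 0.40, so the fitted ratio lay between 0.599 and 1.32. The second Timp2 probe set gave 0.08, and the 2 tested Timp3 probe sets gave -0.04 and -0.14. With coconut fat both tested Timp3 probe sets lay below chow (-0.50 and -0.61, limma adjusted p = 0.963 and 0.936). The second Timp3 probe set, above background on 8 arrays and too dim to test, lay the other way, with both coconut fat arrays above the chow arrays at 23.2 and 17.3.

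**Figure D3:**
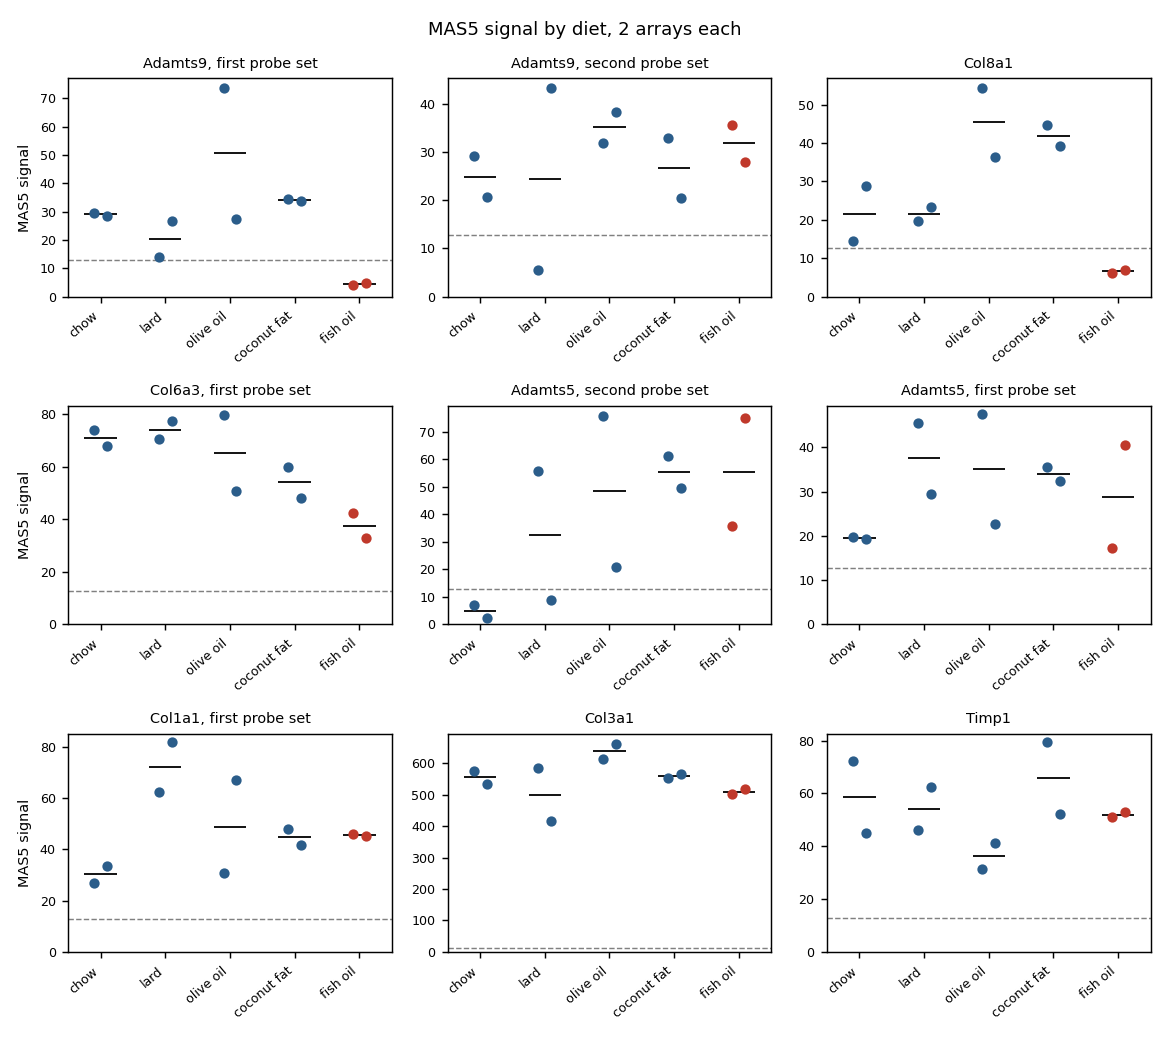
MAS5 signal (vertical axis, linear scale from 0) on the 2 arrays of each diet (horizontal axis) for 9 member probe sets, with the diet mean as a black line, the background of 12.8 as a dashed line and fish oil in red. Fish oil is below background for Col8a1 and for the first Adamts9 probe set but not the second, and the Col3a1 groups lie close together.

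Where a gene had several tested probe sets, they often disagreed. Of 15 such genes, all probe sets had the same sign in 8 with fish oil against chow, 9 with lard, 9 with olive oil, 10 with coconut fat, 7 for the high-fat mean and 9 for fish oil against the other 3.

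Genes of the cells and steps that make and assemble collagen were taken from 3 lists: stellate cell markers, matrix assembly, and transforming growth factor beta signalling. Together, 45 probe sets of 36 genes were tested. Against chow, 0 passed with any single diet or with the high-fat mean, by limma at an adjusted p of 0.05, and at an unadjusted p under 0.05 the counts were 0 higher and 3 lower with fish oil (3.54% and 4.09% of all probe sets), 1 and 2 with lard (4.68% and 3.31%), 4 and 4 with olive oil (4.35% and 4.03%), and 2 and 2 with coconut fat (2.54% and 2.89%). For the high-fat mean they were 2 and 2 (3.84% and 2.82%). With fish oil against the other 3 they were 1 and 4 (4.91% and 6.86%), and 1 of 45 passed, beside 0.424% of all probe sets. The stellate sum of signals was 1930 to 2215 over all 10 arrays, with fish oil at 1945 to 2215 and chow at 2145 to 2176. Its brightest probe sets were Colec11, at 533.1 to 692.8, and Ecm1, at 365.5 to 653.7. Dimmer markers such as Acta2 (29.6 to 68.7) and Lrat (68.4 to 143.4) add little, so the sum is no measure of stellate cell number. Of 19 stellate probe sets, 10 were above background on every array, from Acta2, Colec11, Cygb, Ecm1, Lrat, Pdgfra, Pdgfrb, Reln and Vim. Des and Gfap were above it on 9 arrays, both Hand2 probe sets and Hgf on 4, and Ngfr and Tagln on 1.

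The gene that passed was Ccn2, also called connective tissue growth factor, a secreted protein induced by transforming growth factor beta. It measured 16.2 and 20.7 with fish oil, 52.3 and 41.8 with chow, 49.5 and 50.2 with lard, 48.8 and 46.5 with olive oil, and 61.3 and 87.1 with coconut fat. Both fish oil arrays were below every other array, and still above background. Ccn2 was 2.75-fold lower with fish oil than with the other 3 (log2 fold change -1.46, SE 0.25, limma adjusted p = 0.0367). Against chow it was -1.22 (SE 0.30, limma adjusted p = 0.24). The call was near the threshold: over the alternatives the adjusted p ran from 0.0319 to 0.156. It was lost without either lard array (0.0841 and 0.0735), the first olive oil array (0.0603), either coconut fat array (0.0568 and 0.0752) or either fish oil array (0.156 and 0.117).

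Dcn, or decorin, a small proteoglycan that binds collagen fibrils, measured 115.1 and 148.1 with chow and 34.6 to 77.0 on the 8 high-fat arrays, without overlap. Lard was lowest at 34.6 and 44.3. The high-fat mean gave -1.15 (SE 0.21, limma adjusted p = 0.14) and lard gave -1.66 (SE 0.27, limma adjusted p = 0.145), so neither passed. Fn1, or fibronectin, which hepatocytes also make, measured 2971.7 and 3139.1 with chow and 4930.1 and 4315.5 with olive oil (0.59, SE 0.14, limma adjusted p = 0.264). Coconut fat, at 3953.5 and 4765.4, and lard, at 3274.0 and 3822.9, also lay above chow (0.51 and 0.21, limma adjusted p = 0.725 and 0.756), and fish oil gave 0.07. Lrat, which esterifies vitamin A in stellate cells, measured 143.4 and 113.0 with chow and 68.4 and 92.2 with fish oil (-0.66, SE 0.27, limma adjusted p = 0.585). Olive oil, at 90.9 and 94.0, and coconut fat, at 109.7 and 69.3, were also below both chow arrays, and fish oil differed from the other 3 by -0.29 (SE 0.22).

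**Figure D4:**
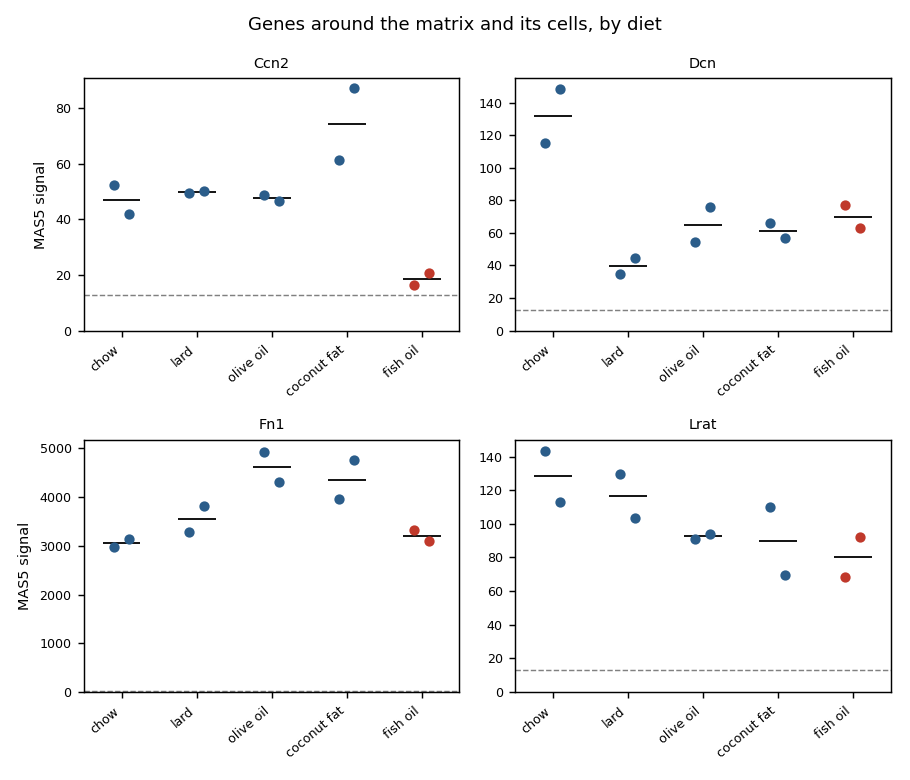
MAS5 signal (vertical axis, linear scale from 0) on the 2 arrays of each diet (horizontal axis) for Ccn2, Dcn, Fn1 and Lrat, with diet means as black lines, the background of 12.8 as a dashed line and fish oil in red. The fish oil arrays are lowest for Ccn2, and the chow arrays highest for Dcn.

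Markers of other cell types were read in the same comparisons, and 1 probe set of them passed. The tested probe sets were 11 of macrophages, 11 of hepatocytes, 8 of endothelium, 4 of cholangiocytes, 4 of lymphocytes and 2 of portal fibroblasts. Of 11 tested macrophage and Kupffer cell probe sets, 10 were below 0 with fish oil against chow, as were 51.5% of all probe sets, with a median of -0.44. Below 0 were also 8 with lard (44.7% of all), 7 with coconut fat (52.1%) and 6 with olive oil (48.3%). Cd74, the invariant chain of class II antigen presentation, passed with fish oil against chow, as did 0.156% of all probe sets. It measured 523.6 and 425.2 with fish oil, 569.8 and 619.9 with lard, 824.5 and 625.5 with coconut fat, 974.3 and 954.9 with olive oil, and 929.6 and 1274.7 with chow. The summed signal of the 12 listed macrophage probe sets was 3733 to 4024 with fish oil, 5455 to 6111 with chow and 4531 to 6002 with the other high-fat diets, so fish oil did not overlap the rest. The 4 tested cholangiocyte probe sets were above 0 with fish oil against the other 3, and 2 of them above and 2 below 0 against chow, with 0 passing. The summed signal of the 6 listed cholangiocyte probe sets was 599 to 1536 with fish oil, 270 to 703 with chow and 237 to 973 with the other high-fat diets, which overlap. Most of the highest sum came from the 2 Onecut1 probe sets, at 1094.0 and 245.3 on the first fish oil array. The first of them measured 64.2 and 384.1 with chow. Epcam measured 107.6 and 130.8 with fish oil and 108.0 and 159.9 with chow. Krt19 measured 39.1 and 42.4 with fish oil and 39.2 and 57.6 with chow. Endothelial markers summed to 3408 and 3450 with fish oil and 2941 to 3625 with chow, lymphocyte markers to 160 to 202 and 202 to 225, portal fibroblast markers to 57 to 78 and 97 to 108, and hepatocyte markers to 80800 to 84450 and 78289 to 80583. No portal fibroblast probe set was above background on all arrays. The part of these cell types in the Ccn2, Col8a1, Col6a3, Adamts7 and Adamts9 values was not tested.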

How the data were processed

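Liver RNA of 10 rat samples, 2 per diet, was measured on 10 arrays, and array number limits the precision. The authors deposited a MAS5 signal intensity for each probe set, per the submitters' processing notes. Software versions and scaling steps are not given in the sources used here. After removal of 57 controls from 31099 probe sets, 31042 remained, of which 20826 had 1 gene symbol in the platform annotation, 436 several and 9780 none. RefSeq (GRCr8) matched all 84 member genes and changed 0 symbols, and promoter windows came from RefSeq for 63 of them. Signals were turned into log2(signal + 3.1), the dimmest 40% were left out (12416 probe sets), and limma 3.58.1 in R 4.3.3 was fitted with 1 mean per diet, empirical Bayes with an intensity trend (5 residual and 5.96 prior degrees of freedom) and Benjamini-Hochberg adjustment at 0.05. The script was tested on simulated data.

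The members, the lists of related genes and cell type markers, and the rule for named genes were chosen with earlier results of these data known. The rule named 48 probe sets of 36 genes: any member that passed, in each of 6 contrasts up to 3 at either end of the fold changes among those whose arrays did not overlap and whose higher group was above background, and tested probe sets of 31 matrix genes listed by role, of which 23 genes were bright enough. Related genes were named by their p-values: those that passed in a contrast, or the 4 with the smallest limma p where none passed. Alternatives were a threshold of 0.10, quantile normalization, scaling arrays to a common 75th percentile, a floor or a larger offset (10.0, the 25th percentile), 60% or none of the dim probe sets removed, no intensity trend, fits without the diets not compared, blocking on the replicate number, and dropping each array. Replicate numbers were not treated as pairs, since deviations of samples with the same number correlated at -0.03 to 0.08, with 0 of 10 pairs over 0.1.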

Additional observations from a re-analysis of the deposited data

Results flagged for a closer look

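For 10 of the 48 named probe sets, both arrays of 1 diet lay above both chow arrays while both arrays of another lay below them. The difference between those diets was not tested by this rule, and such a split was seen for 15.9% of the 63 members tested and 12.4% of all 18626 probe sets. All values here are log2 fold changes against chow. Fish oil was the lower diet in most. Col8a1 gave 1.01 with olive oil and 0.93 with coconut fat but -1.29 with fish oil. The first Adamts9 probe set gave 0.22 with coconut fat, -0.51 with lard and -2.07 with fish oil. Col6a6 gave 0.39 with lard and 0.23 with olive oil but -1.13 with fish oil, where the first array measured 5.6, below background, and the second was above it. Its fish oil value was -0.28 without the first fish oil array and -1.98 without the second. Col3a1 gave 0.20 with olive oil and -0.12 with fish oil, and the first Col5a2 probe set gave 0.46 and -0.18. The second Mmp14 probe set gave 0.20 with lard and -0.24 with fish oil.

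Lamb1, a laminin beta chain, gave 0.33 with lard and 0.38 with olive oil but -0.41 with coconut fat and -0.34 with fish oil. The fourth and brightest Timp3 probe set gave 0.45 with olive oil, -0.61 with coconut fat and -0.37 with fish oil. The second Col4a1 probe set gave 0.06 with olive oil, -0.24 with lard and -0.14 with coconut fat. Lama3 was the reverse case, at 0.44 with fish oil and -0.82 with olive oil.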

How the results depend on the processing

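The count of members passing was 0 in all 7 comparisons under every scaling, offset, filter and variance alternative at an adjusted p of 0.05. At 0.10 in place of 0.05, 2 members passed for fish oil against the other 3 high-fat diets, Col8a1 and Adamts9 (1.12% of all probe sets passed), and 0 in the other 6 comparisons. With 1 array left out at a time, the count ran from 0 to 1 for olive oil against chow and from 0 to 1 for fish oil against the other 3, and was 0 elsewhere. The olive oil calls were Col9a2 without the second olive oil array (limma adjusted p = 0.0475, with 0.102% of all probe sets passing), which leaves a lone array at 2.5, and Col4a5 without the second chow array (0.0428, with 0.113%). The fish oil call was Adamts9 without the second olive oil array (0.0396, with 0.574%). A lone array was assumed to vary like the other diets. Ccn2 lost its call with no dim filter (limma adjusted p = 0.0693) and with no intensity trend (0.0773), and Bmp1 gained one for fish oil against the other 3 without the first olive oil array (0.0324). With the replicate number as a block, 0 members passed in all 7 comparisons and Ccn2 had a limma adjusted p of 0.0541; the numbers are not shown to pair samples. The cause of these changes was not tested. No called value changed sign. Dim signal limits these results: 56 of 119 members could not be tested, and 11 were above background on no array.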

Other observations

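Lox, the enzyme that crosslinks collagen, had 1 chow array far above the rest on both of its probe sets. The first chow array measured 601.0 and 301.0, the second 113.5 and 85.6, and the 8 high-fat arrays 19.4 to 280.0 and 38.1 to 97.6. The other genes of collagen processing included Bmp1, the protease that trims fibrillar procollagen. Its first probe set measured 31.6 and 37.8 with fish oil, 37.7 and 50.4 with chow and 51.8 to 110.6 with the other high-fat diets. Fish oil was below the other 3 without overlap (-1.20, SE 0.27, limma adjusted p = 0.0996), and the second probe set gave -0.36. Reln, a secreted glycoprotein that stellate cells make in liver, measured 104.9 and 109.7 with olive oil on its first probe set and 49.8 to 84.4 on the other 8 arrays, without overlap. Olive oil against chow gave 0.78 (SE 0.23, limma adjusted p = 0.364), which did not pass. The second Reln probe set measured 247.5 and 321.4 with olive oil and 188.0 to 245.5 on the other 8 arrays.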
